A study of Mus musculus with 20 samples.

Results

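The cytosolic ribosomal protein genes were taken as the genes whose mouse symbol is Rps or Rpl followed by a number, with the letter endings a, x, l and y allowed, together with the stalk genes Rplp0, Rplp1 and Rplp2. Symbols ending in -ps, which mark pseudogenes, and the S6 kinase and Rps19 binding protein genes were left out. The rule found 89 of the 78258 genes in the table: 35 of the small subunit, 51 of the large subunit and 3 of the stalk. Of these, 83 are annotated as protein coding, and 6 carry a processed pseudogene biotype although their names hold no pseudogene mark (Rps4l, Rps12l1, Rpl32l, Rpl6l, Rps3a3 and Rps3a2). Rpsa and Fau also encode cytosolic ribosomal proteins but have symbols outside the rule, and they are given separately.

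RNA was measured by stranded mRNA sequencing in dorsal root ganglia (DRG), the ganglia beside the spinal cord that hold the cell bodies of sensory neurons. All animals were male mice that received tamoxifen (100 mg/kg, intraperitoneal, on 5 days) at 17 weeks of age, and the ganglia of lumbar levels L4 to L6 were taken 4 weeks later, 1 day after transection of the sciatic nerve. The Ahr cKO mice (H61, H64, H95, H99 and H100) were Ahr fl/fl with Thy1CRE-ERT2/EYFP, a tamoxifen-dependent Cre with a fluorescent reporter under the Thy1 promoter, and the control mice (H62, H63, H65, H96 and H97) were Ahr f/f or f/+ by the protocol, while their own labels read FF for the genotype and Wildtype in the title. Each mouse gave 1 library from the contralateral and 1 from the ipsilateral ganglia, which made 4 groups of 5 libraries. One label field names a spinal cord injury, against the nerve transection of the protocol, which was followed here. Thy1 drives the Cre in neurons, and the libraries hold all cells of the ganglia, so deletion in a part of the cells is diluted by the others. In such bulk samples fewer cells of a type and less RNA per cell cannot be told apart.

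The cytosolic ribosome is built from a small subunit, which reads the mRNA, and a large subunit, which joins the amino acids, and its proteins are made in nearly equal numbers. The mRNAs of most ribosomal proteins start with a C followed by an unbroken run of pyrimidines, the 5′ terminal oligopyrimidine (TOP) motif, through which mTORC1 and the binding protein LARP1 set their translation. In sensory neurons, ribosomal protein mRNAs are also carried into axons and translated there, and new protein synthesis is part of the response of a neuron to axon injury.

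The sequence at the transcription start was searched for a run of pyrimidines. This is looser than the motif, since the run may begin before the start and its base at the start may be T. RefSeq promoters (build GRCm38.p6) were matched by symbol to 64 of the 89 genes. An unbroken run of at least 5 C or T letters across the first listed start was present in 19 of them, 29.7%, against 9.95% of the 27025 genes with a promoter in the table. The windows of 5 genes with the run and of 3 without it are printed for genes described below, each with 15 bases before the annotated start and 15 from it, on the strand of the gene, with the run in capitals.
Rps15a, chr7:118116133-118116162, minus strand: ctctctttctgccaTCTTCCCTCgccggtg
Rps27, chr3:90213634-90213663, minus strand: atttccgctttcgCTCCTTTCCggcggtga
Rps21, chr2:180257364-180257393, plus strand: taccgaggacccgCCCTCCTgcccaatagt
Rps6, chr4:86857353-86857382, minus strand: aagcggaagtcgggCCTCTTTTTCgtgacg
Rplp2, chr7:141447636-141447665, plus strand: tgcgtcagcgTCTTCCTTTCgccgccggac
Rps27l, chr9:66946071-66946100, plus strand: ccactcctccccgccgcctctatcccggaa
Rpl22, chr4:152325711-152325740, plus strand: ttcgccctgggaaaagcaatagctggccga
Rpl41, chr10:128549154-128549183, minus strand: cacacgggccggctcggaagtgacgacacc
No run at a listed start says only that the letters are not there, since a true start may lie some bases away: a run of at least 8 within 20 bases of the start was found in 45.3% of the 64 genes and in 15.9% of all promoters. In the 300 bases around the start, the ETS core CCGGAA (on either strand) was found in 48.4% of the genes against 15.2% of all promoters. The core of the AhR response element, GCGTG on either strand, was found in 56.3% against 32.5%, and the GC box GGGCGG in 59.4% against 35.9%. The TATAAA box was found in 10.9% against 14.2%, and the E-box CACGTG in 7.81% against 7.24%.

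Libraries held 76.2 to 118.5 M exonic counts, and the cKO contralateral libraries (76.2 to 87.2 M) were shallower than the cKO ipsilateral ones (87.5 to 118.5 M). Ahr, the targeted gene, had 21.3, 24.6, 23.8, 27.2 and 24.4 CPM (counts scaled to a common library size) in the control contralateral libraries of H62, H63, H65, H96 and H97 and 20.4, 21.0, 20.5, 20.4 and 19.5 CPM in those of the cKO mice H61, H64, H95, H99 and H100, a log2 fold change of -0.25 that did not pass the test over all genes (edgeR with Benjamini-Hochberg adjustment, adjusted p 0.103). On the injured side Ahr was higher in both genotypes, and its values overlapped: 34.4 ± 2.86 CPM (30.2 to 38.1) in control and 31.9 ± 2.94 CPM (28.9 to 36.8) in cKO mice (SD, n = 5). Summed over 20 sensory neuron markers, libraries had 14255 to 16903 CPM, and lymphocyte markers had 2.99 to 14.7 CPM. Atf3, a transcription factor induced by axon injury, had 8.46 to 13.8 CPM in contralateral and 369.7 to 461.8 CPM in ipsilateral libraries.

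The 89 genes together took 0.739% to 0.999% of the counts, and their summed level was 7575 to 9643 CPM. Of the 89, 87 passed the filter on low counts and were tested, and 81 had a mean of at least 20 CPM. Per kilobase of the annotated transcript, the highest levels were those of Rpl41 (360.3 CPM per kb), the shortest of the ribosomal proteins, and of the stalk protein gene Rplp1 (338.3), followed by Rps15 (286), Rpl22 (266) and Rps9 (259). Rpl4, with the highest CPM (mean 349), had 227 CPM per kb because its transcript is long. The length was that of 1 annotated transcript per gene, the shortest of the best-ranked, while the counts are per gene. The order per kilobase depends on this choice. Small and large subunit genes kept a nearly fixed proportion: the summed CPM of the small subunit divided by that of all others was 0.587 to 0.607 in the 20 libraries.

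Of the 8 paralogs of single ribosomal proteins, Rpl10l, Rpl39l and Rpl3l were scarce or absent from the counts. The testis paralog Rpl10l had 0 counts in all 20 libraries, which allows at most 3 counts, or 0.00162 CPM over all libraries together. Rpl39l, also known from testis, had 59 counts in all, and neither gene was tested. Rpl3l, which replaces Rpl3 in striated muscle, had 0.0629 to 2.54 CPM in 19 libraries and 5.90 CPM in the contralateral library of H100, the library with the highest summed muscle markers (2007 CPM, against 7.66 to 758 CPM in the others). Rpl22l1 made up 11.98% to 14.98% of the Rpl22 and Rpl22l1 pair, Rpl7l1 21.2% to 26.1% of its pair with Rpl7, and Rpl36al 25.3% to 27.9% of its pair with Rpl36a. Reads of these genes can be hard to place: in 36 of the 89, at least 50% of the 100-base pieces of the transcript also occur in transcripts of other genes, most of them pseudogenes, and 300 genes with -ps names held a further 8.66% to 9.58% of the summed level.

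The genes moved together across libraries. Over the 20 libraries, the log2 level of each of the 83 genes whose mean reached 5 CPM was set against the median of the others, and the median Pearson r was 0.917, with 51 genes at 0.9 or above. Within a library the genes share its depth, scaling and cell makeup, so the value is a description. The least alike was Rps4l (r 0.03), the only one under 0.5, followed by Rpl7l1, an assembly factor related to Rpl7 (0.51), and Rps27a (0.52), which encodes a ubiquitin fused to a ribosomal protein. Rps27l had r 0.62 and Rpl22 0.69.

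**Figure D1:**
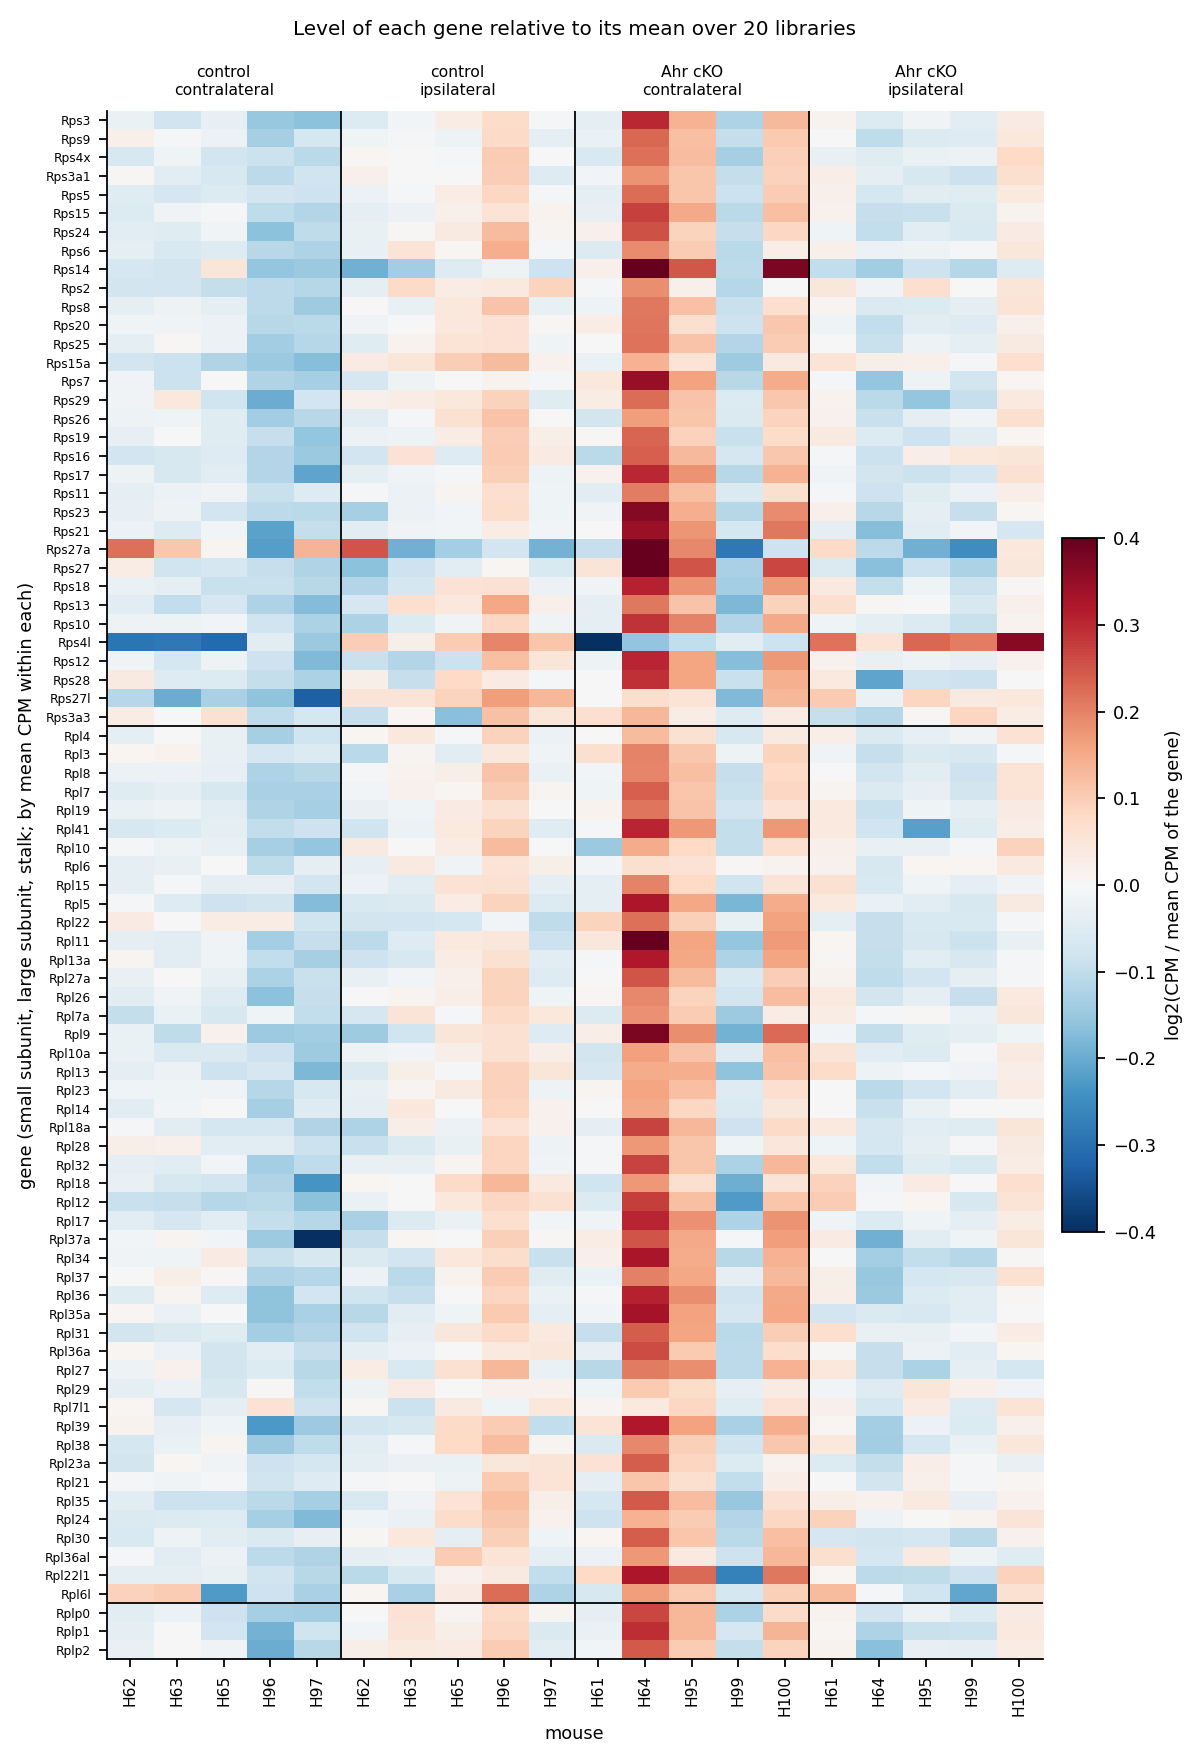
Each row is 1 of the 83 genes whose mean reached 5 CPM and each column 1 library, in 4 groups of 5 mice. Colour gives the log2 ratio of the CPM to the mean of the gene over the 20 libraries, limited to 0.4 in either direction, and the contralateral libraries of H64, H95 and H100 stand out as red columns while Rps4l, Rps27l and Rps27a break the column pattern.

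The summed level is shown first because 3 libraries stood apart. In the control contralateral libraries of H62, H63, H65, H96 and H97 it was 8020, 8009, 7959, 7577 and 7575 CPM. In the cKO contralateral libraries of H61, H64, H95, H99 and H100 it was 8086, 9643, 8889, 7658 and 8788 CPM. Control ipsilateral libraries had 7976 to 8647 CPM and cKO ipsilateral libraries 7768 to 8361 CPM. The contralateral libraries of H64, H95 and H100 were therefore above all 17 others, and those of H61 and H99 were not: 80 of the 87 tested genes had their highest level of all libraries in that of H64. The same 3 libraries had the highest summed levels of 6 fibroblast markers (2236, 1980 and 1685 CPM, against 802 to 1558 CPM in the other 17) and the highest shares of mitochondrial counts (1.31%, 1.30% and 1.33%, against 0.916% to 1.199%). Their erythroid markers summed to 833, 580 and 621 CPM and their neutrophil markers to 278, 194 and 114 CPM, within or above ranges of 252 to 711 and 31.2 to 262 CPM in the others. Whether these cells or this RNA had a part in the level of the ribosomal protein genes was not tested.

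**Figure D2:**
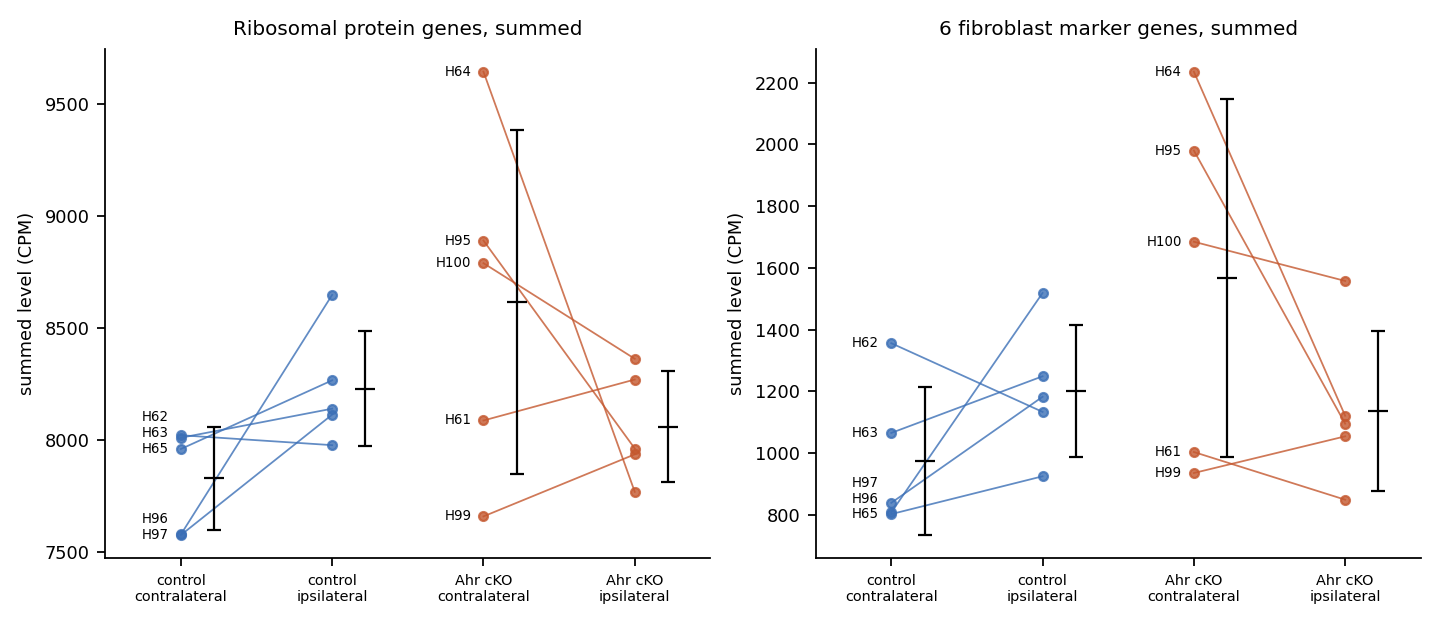
Points are libraries, lines join the contralateral and ipsilateral library of a mouse, and the black mark with bars is the mean with SD of 5 libraries; the axes do not start at 0. The left panel gives the summed CPM of the 89 ribosomal protein genes and the right panel that of 6 fibroblast markers, and in both the contralateral libraries of H64, H95 and H100 lie highest.

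Nerve transection was asked first in control mice, by comparing ipsilateral with contralateral ganglia. Of the 87 genes, 6 were called at an adjusted p under 0.05 (edgeR quasi-likelihood test, Benjamini-Hochberg adjustment over 28564 genes), all 6 higher on the injured side and none lower, against 29.9% of all genes called, 13.8% higher and 16% lower. The called genes were Rps4l, Rps27l, Rps15a, Rpl18, Rps2 and Rpl24. The shifts were small: log2 fold changes of the 87 genes had a median of 0.07, against 0.00 for all genes, and 81 of 87 were above 0, against 49.2% of all genes. In 29 of the 87 the ipsilateral level was higher in all 5 mice, against 18.3% of all genes, and in 14 the groups did not overlap with ipsilateral higher, against 11.3%. Rpl22 alone was lower in all 5 mice, against 20.2% of all genes, and none had groups that separated with ipsilateral lower, against 12.3%. The mice differed: the summed level changed by -0.552% in H62, 1.62% in H63, 3.85% in H65, 14.1% in H96 and 7.10% in H97, and the ipsilateral library was higher for 40, 54, 71, 83 and 82 of the 87 genes. Markers of several other cell types were higher on the injured side too. Of 6 satellite glia markers 4 were called higher by edgeR (median log2 fold change 0.25). Their summed levels were 1051 to 1149 CPM contralateral and 1281 to 1415 CPM ipsilateral. Of 7 endothelial markers 3 were called higher (median 0.40), and of 13 macrophage markers 1 was (median 0.41, all 13 above 0). The 8 neutrophil markers were all above 0 (median 0.60), with none called or at an unadjusted p under 0.05 by edgeR and none called by DESeq2. Sensory neuron and lymphocyte markers went the other way. Of 20 sensory neuron markers edgeR called 4 lower and none higher, and 12 were below 0 (median -0.02). Of 10 lymphocyte markers 8 were below 0 (median -0.24), with none called by edgeR. The ipsilateral library of H96, the mouse with the largest rise, had the highest satellite glia (1415 CPM), Schwann cell (5168 CPM), macrophage (285 CPM) and neutrophil (262 CPM) sums of its group, and the part of these cells in the rise was not tested.

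Rps27l is a paralog of Rps27 and a known direct target of p53. Its level was 19.6, 18.5, 19.4, 19.0 and 16.9 CPM in the contralateral libraries of H62, H63, H65, H96 and H97. On the injured side of the same mice it was 21.99, 21.98, 22.6, 23.8 and 23.3 CPM. All ipsilateral values were above all contralateral ones, and the log2 fold change was 0.28 (SE 0.0507, edgeR adjusted p 0.000188), or 21.6%. Rps27 itself had 50.4 ± 1.99 CPM on the contralateral and 50.3 ± 2.17 CPM on the ipsilateral side (SD, n = 5).

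Rps15a, a protein of the small subunit whose start window carries the pyrimidine run, had 91.2, 90.4, 88.3, 86.6 and 85.2 CPM in the contralateral libraries of H62, H63, H65, H96 and H97. On the injured side it had 98.2, 99.2, 102.7, 105 and 97.02 CPM in the same order, so the groups did not overlap. Its log2 fold change was 0.18 (SE 0.0388, edgeR adjusted p 0.000912). Rps2, at the mRNA entry channel of the small subunit, went from 113 ± 1.36 to 124 ± 4.26 CPM, by 0.13 on the log2 scale (edgeR adjusted p 0.0128). The large subunit genes Rpl18 (0.16, adjusted p 0.0288) and Rpl24 (0.13, adjusted p 0.0406) rose too in the edgeR test, and their groups did not overlap. Rpl24 shares exon bases with Gm28037 on the same strand, and 80.1% of its 100-base pieces occur in other transcripts, so its level is uncertain. The same limit holds for Rps2 and Rpl18, with 64.7% and 55.3% of their pieces in other transcripts. The call of Rpl24 was lost with the replicate block by mouse. Rps6, the substrate of the S6 kinases, had 131 ± 3.49 and 141.5 ± 6.93 CPM and was higher on the injured side in 5 of 5 mice, with a log2 fold change of 0.11 that did not pass (edgeR adjusted p 0.0606). The stalk genes Rplp0, Rplp1 and Rplp2, which bind the elongation factors, had log2 fold changes of 0.12, 0.09 and 0.10, also higher in 5 of 5 mice and not called (edgeR adjusted p of 0.0955 for Rplp0).

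How many genes were called depended on the fit. With total counts in place of TMM scaling, or with limma on log2 FPKM, 3 were called, all higher, against 12.5% and 12.4% of all genes called higher, and when only the 10 control libraries entered the fit, 37 were, all higher, against 16.7% of all genes called higher and 15.5% lower in that fit. Leaving out a mouse gave 3 calls without H97, 12 without H64 and 14 without H99, all higher, against 12.7%, 14.1% and 15% of all genes called higher in those fits, and Rps4l, Rps27l and Rps15a remained called in all 12 alternatives and all 10 fits without a mouse.

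The same comparison in Ahr cKO mice gave 20 calls among the 87 genes (edgeR), 1 higher and 19 lower on the injured side, against 31.3% of all genes called, 16.2% higher and 15.1% lower. The gene that rose was Rps4l, the single gene higher in all 5 mice (against 17.9% of all genes) and the single one with separate groups and ipsilateral higher (against 11.9%). Among the 19 that fell were 8 of the small subunit (Rps14, Rps27, Rps21, Rps7, Rps28, Rps23, Rps29 and Rps20), 10 of the large subunit (Rpl11, Rpl34, Rpl41, Rpl35a, Rpl22, Rpl36, Rpl30, Rpl3, Rpl27a and Rpl23) and the stalk gene Rplp1. The median log2 fold change of the 87 genes was -0.09, against -0.03 for all genes, and 81 of 87 were below 0. Only 6 genes (Rps14, Rpl22, Rpl3, Rpl30, Rpl34 and Rps29) were lower in all 5 mice, against 17.5% of all genes, and no gene had groups that did not overlap with ipsilateral lower, against 8.32%.

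**Figure D3:**
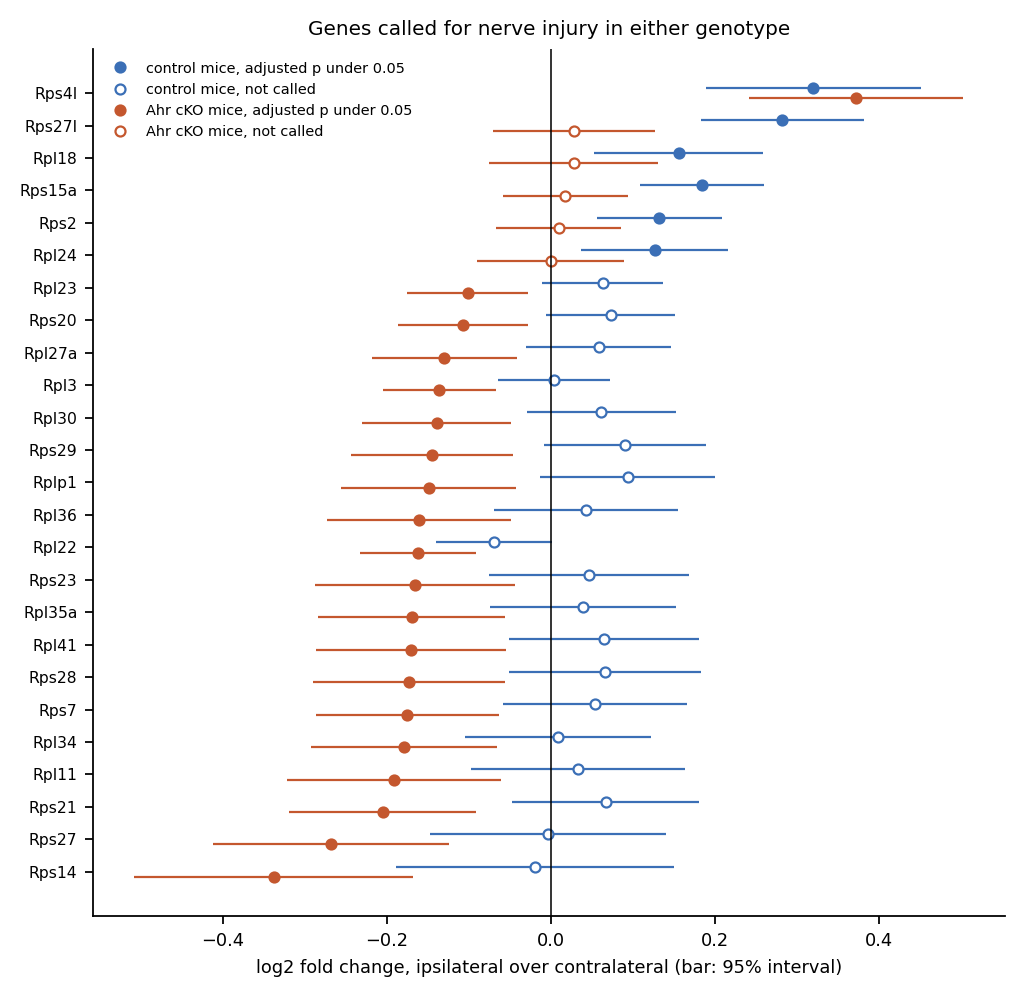
Points give the log2 fold change of ipsilateral over contralateral libraries for the 25 genes called in either genotype, with 95% intervals as bars, in control (blue) and Ahr cKO mice (orange); filled points were called. Rps4l lies at 0.32 and 0.37 in the genotypes, and Rps14 at -0.02 in control and -0.34 in cKO mice.

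Rps14, a small subunit protein at the platform of the ribosome, had the largest fall of the genes called. It had 123, 180.3, 145, 113 and 158 CPM in the contralateral libraries of H61, H64, H95, H99 and H100. On the injured side it had 114, 111, 115, 113 and 118 CPM, and the control mice had 107 to 126 CPM over both sides. The high values were thus those of H64, H95 and H100 on the uninjured side, while H61 and H99 were in the range of the control libraries. The log2 fold change was -0.34 (SE 0.0867, edgeR adjusted p 0.00531), and its groups overlapped.

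Rps27, at 54.6, 72.0, 62.7, 48.2 and 63.4 CPM contralateral and 50.7, 46.9, 49.7, 48.3 and 54.4 CPM ipsilateral in H61, H64, H95, H99 and H100, had the next largest fall (-0.27, SE 0.0733, edgeR adjusted p 0.00790). Rps21, a small subunit protein that matures the pre-rRNA, had 59.2, 75.1, 66.8, 56.3 and 68.4 CPM contralateral and 57.7, 52.5, 57.4, 58.7 and 56.4 CPM ipsilateral (-0.20, edgeR adjusted p 0.00978). Both repeat the order of Rps14, with H64 highest on the uninjured side. Rpl11, which with Rpl5 binds MDM2 when ribosome assembly is disturbed, went from 137 ± 19.6 to 120.2 ± 3.47 CPM, by -0.19 (edgeR adjusted p 0.0339), a call lost with the replicate block and in 6 of the 10 fits without a mouse, and Rpl5 had -0.10 and did not pass (adjusted p 0.246). The 3 libraries that stood apart held its highest contralateral values too.

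Rpl22, a large subunit protein that also binds mRNAs outside the ribosome, and Rpl3, which lines the peptidyl transferase centre, fell in every setting tried. Rpl22 had 134, 147, 135, 124 and 141 CPM in the contralateral libraries of H61, H64, H95, H99 and H100. On the injured side it had 123, 118, 121, 121 and 126 CPM, lower in every mouse, with a log2 fold change of -0.16 (SE 0.0361, edgeR adjusted p 0.00154). In control mice Rpl22 was also lower on the injured side in all 5 mice, by 0.07 on the log2 scale, which did not pass (edgeR adjusted p 0.165). Rpl3 went from 236 ± 12.8 to 215 ± 5.34 CPM in cKO mice (-0.14, edgeR adjusted p 0.00507) and had a log2 fold change of 0.00 in control mice. Of the 100-base pieces of Rpl3, 79.4% occur in other transcripts, so its level is uncertain.

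The count in cKO mice moved with the fit, also where a control mouse was left out. It was 4 without H64, 5 without H95, 9 without H65, 10 without H63, 11 without H97, 11 without H100 and 41 without H99, in each case 1 higher (Rps4l) and the others lower. Of all genes, these fits called lower 11.6%, 11.5%, 14.1%, 13.5%, 13.8%, 12.2% and 14.3% in the same order. With a replicate block, which compares the 2 sides within each mouse, 8 genes were called, 1 higher and 7 lower (against 15.2% of all genes lower), and all 8 were among the 20: Rps4l, Rps14, Rps27, Rps21, Rpl22, Rpl3, Rpl30 and Rpl34. Rps4l, Rps14, Rpl22 and Rpl3 remained called in all 12 alternatives and in all 10 fits without a mouse. By mouse, the summed level changed by 2.26% in H61, -19.4% in H64, -10.4% in H95, 3.62% in H99 and -4.86% in H100, and the ipsilateral library was higher for 60, 1, 5, 73 and 11 of the 87 genes. The mice with a fall were those with the high contralateral libraries. Over the 6 fibroblast markers the median log2 fold change was -0.48 in cKO mice and 0.32 in control mice, with none called in either genotype by edgeR (1 in each at an unadjusted p under 0.05, and 1 by DESeq2 in control mice). In cKO mice the erythroid markers had a median of -0.41 (5 of 5 below 0), the neutrophil markers -0.11 (7 of 8) and the muscle markers -3.06 (10 of 10). None of these was called by edgeR, 1 muscle marker had an unadjusted p under 0.05, and DESeq2 called 5 muscle markers. Of 10 lymphocyte markers 9 were below 0 (median -0.32), with none called by edgeR. Other lists differed: of 6 satellite glia markers edgeR called 3 higher (median 0.18). Of 13 macrophage, 7 endothelial and 10 Schwann cell markers, 8, 4 and 6 were above 0 (medians 0.15, 0.07 and 0.02). Of 20 sensory neuron markers edgeR called 4 lower and 1 higher, and 13 were below 0 (median -0.08). The part of these cells in the fall was not tested.

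Rps4l was the only gene called for injury in both genotypes. It lies on chromosome 6 (148354656 to 148355598, GRCm38, GENCODE release M21), a single exon within an intron of Tmtc1 on the opposite strand, and is annotated there as a transcribed processed pseudogene related to Rps4x. In control mice it had 30.9, 31.0, 30.4, 36.6 and 34.1 CPM in the contralateral and 40.4, 38.4, 40.5, 43.3 and 40.8 CPM in the ipsilateral libraries of H62, H63, H65, H96 and H97. In cKO mice it had 28.2, 33.9, 35.3, 36.6 and 35.7 CPM contralateral and 43.9, 39.3, 44.4, 43.6 and 48.6 CPM ipsilateral in H61, H64, H95, H99 and H100. The groups overlapped in neither genotype, and the log2 fold changes were 0.32 (SE 0.0669, edgeR adjusted p 0.000860) and 0.37 (SE 0.0668, edgeR adjusted p 0.000187). Unlike most of the genes it was not high in the contralateral library of H64.

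Tmtc1, the host gene on the other strand, fell on the injured side: control means were 349 CPM contralateral and 287 CPM ipsilateral, and cKO means 349 and 282 CPM (log2 fold changes of -0.28 and -0.31, edgeR adjusted p 1.57e-05 and 4.64e-06). The library kit keeps strand, but the strand setting of the counting is not given in the sources used here, so reads of the 2 strands may have been mixed. Only 2.03% of the 100-base pieces of Rps4l occur in another transcript, and none of those of Rps27l do. For Rps27 the share is 98.4%, shared with Rps27rt, which had 2.11 to 4.54 CPM, so the level of Rps27 depends on how such reads were assigned.

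Each paralog was also set against its partner, and of the 8 pairs only Rps27l had a share whose contralateral and ipsilateral ranges were separate in both genotypes. Rps27l made up 27.0% ± 0.801 (SD, n = 5) of the CPM of Rps27l and Rps27 in control contralateral and 31.1% ± 0.533 in control ipsilateral libraries, with ranges of 25.9% to 27.8% and 30.7% to 31.9% that did not overlap. In cKO mice it was 26.5% ± 1.81 contralateral and 30.5% ± 1.07 ipsilateral, with ranges of 23.7% to 28.0% and 28.7% to 31.2% that did not overlap either. The CPM of Rps27l itself was not called in cKO mice (0.03, edgeR adjusted p 0.727). Within mice, Rps27l was higher on the injured side in H61, H95 and H99 and lower in H64 and H100, while Rps27 was lower in all but H99. Rps4l made up 16.7% ± 1.34 of the CPM of Rps4l and Rps4x in control contralateral and 19.0% ± 0.387 in control ipsilateral libraries, and 16.2% ± 1.81 and 20.6% ± 0.787 in the cKO groups. These ranges overlapped in control mice (15.5% to 18.6% against 18.4% to 19.3%) and did not in cKO mice. The Rpl22l1 share had means of 13.4%, 14.1%, 14.0% and 14.0% in the control contralateral, control ipsilateral, cKO contralateral and cKO ipsilateral groups, with overlapping ranges. In the same order the Rpl7l1 share had means of 24.4%, 23.3%, 23.2% and 23.9% and the Rpl36al share 26.3%, 26.5%, 26.3% and 26.7%, also with overlapping ranges. No test was made on the shares, which were looked at because of the pairs they belong to.

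**Figure D4:**
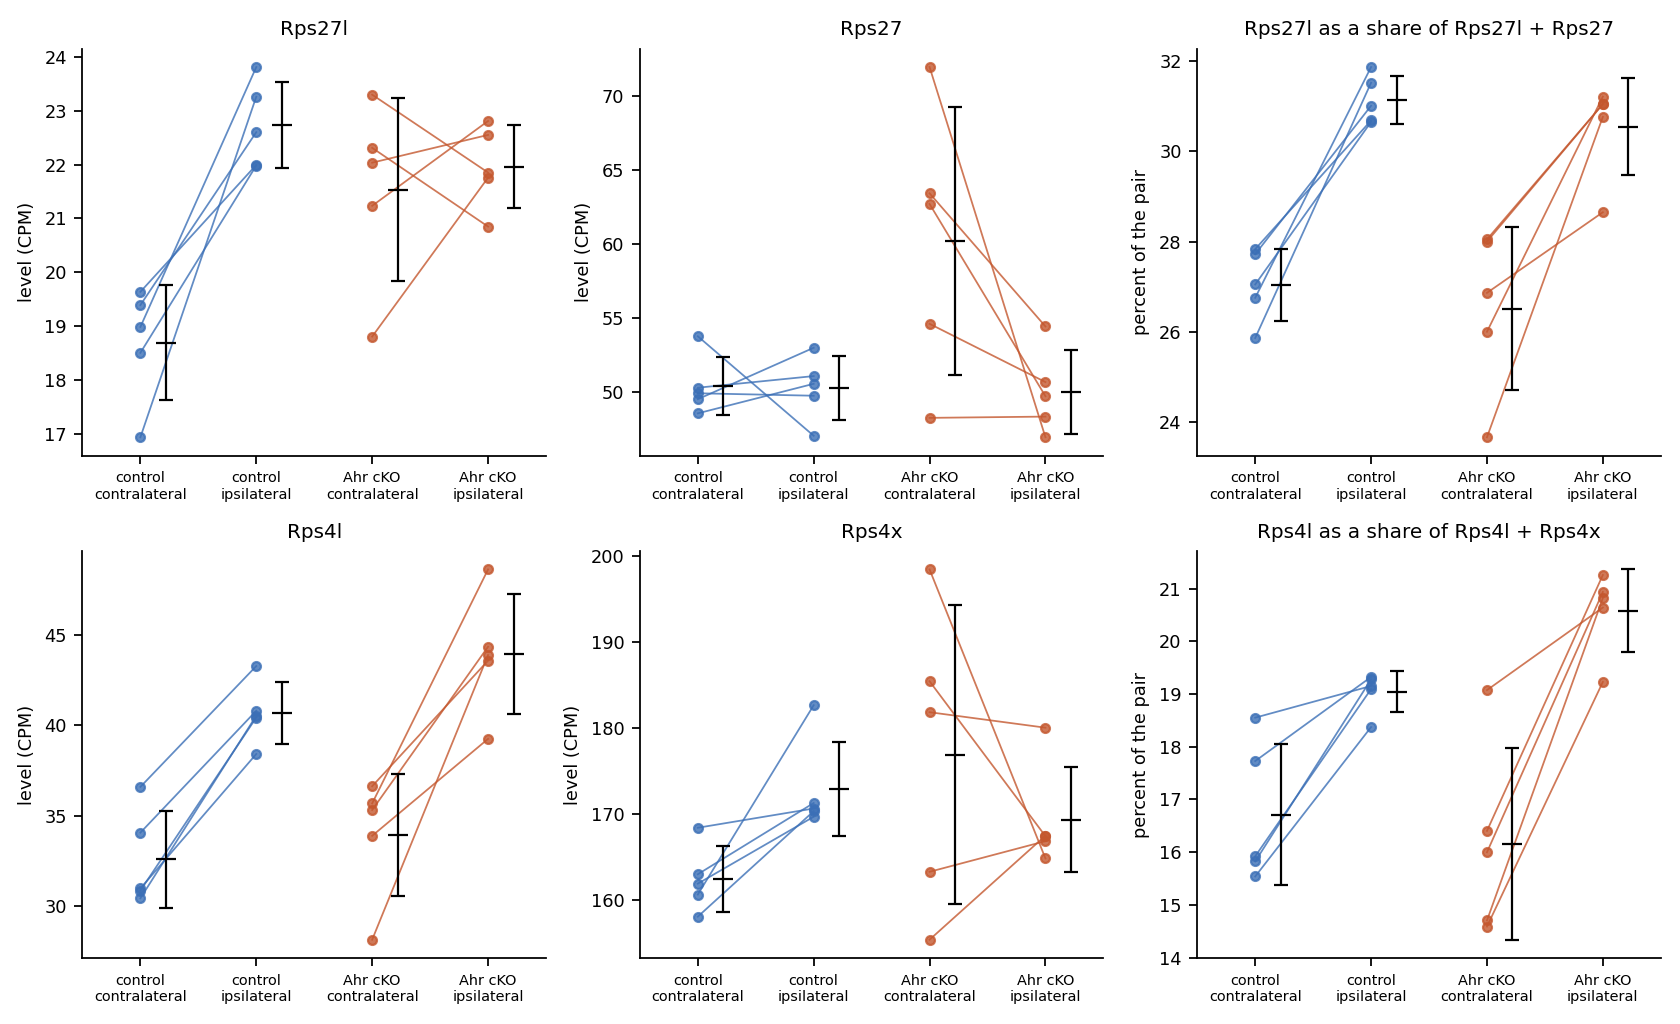
The left and middle panels give the CPM of Rps27l with Rps27 (top) and of Rps4l with Rps4x (bottom), and the right panels the first gene as a percent of each pair; points are libraries, lines join the 2 sides of a mouse, black marks give the mean with SD of 5 libraries, and the axes do not start at 0. The Rps27l share is at least 28.7% in every ipsilateral and at most 28.0% in every contralateral library.

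The genotypes were then compared on each side; these comparisons and those of injury share libraries and are not independent of each other. On the uninjured side no ribosomal protein gene was called by edgeR (0 of 87, against 0.0735% of all genes called, 0.0245% higher and 0.049% lower), yet all 87 log2 fold changes of cKO over control were above 0, with a median of 0.13 against -0.01 for all genes. At an unadjusted p under 0.05 there were 73 of the 87, against 17.5% of all genes, and the smallest adjusted p was that of Rps27l (0.20, SE 0.0507, edgeR adjusted p 0.0971). DESeq2 called 23 of them higher, against 2.34% of all genes higher and 1.31% lower, and limma-voom none. In none of the 87 did the groups separate (0 of 87, against 0.448% of all genes with cKO higher and 1.07% with cKO lower). Without H99, edgeR called 69 of them, all higher, against 5.02% of all genes called higher and 6.52% lower in that fit. The median log2 fold change was 0.17 without H99 and 0.09 without H64, the highest and the lowest of all settings. The genes moved together across libraries, so the 87 are not separate observations. Their summed level was above all other libraries in the contralateral libraries of H64, H95 and H100, and not in those of H61 and H99.

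Leaving aside the scarce Rpl3l, the largest difference was that of Rps14 (116 ± 6.70 in control and 144 ± 26.8 CPM in cKO mice, log2 fold change 0.32, edgeR adjusted p 0.109), followed by Rps27 (0.26, adjusted p 0.115); Rps21 had 0.22 (adjusted p 0.103). For Rps14 the SD in the cKO group was about as large as the difference itself. Rps27a had the smallest difference (57.5 ± 6.47 and 58.1 ± 12.8 CPM, 0.01). Small subunit, large subunit and stalk genes had medians of 0.15, 0.12 and 0.15. Genes with a pyrimidine run at the first listed start had a median of 0.14 (19 genes), and genes without it 0.14 (43 genes). Genes with and without GCGTG in the promoter also had medians of 0.14 (34 genes) and 0.14 (28 genes), and their median interaction terms were both -0.17. Beside this, the 6 fibroblast markers had a median log2 fold change of 0.81 in the same comparison, all 6 above 0, the 8 neutrophil markers 0.77 and the 5 erythroid markers 0.47, all above 0. The 10 muscle markers had 1.28 (9 above 0), the 13 macrophage markers 0.26 and the 7 endothelial markers 0.17, the latter lists with every marker above 0. None of these markers was called by edgeR, and 5 fibroblast markers and 1 endothelial marker had an unadjusted p under 0.05. DESeq2 called 2 of the fibroblast markers and none of the others. Not all lists lay above 0: 15 of 20 sensory neuron markers (median -0.03) and 9 of 10 lymphocyte markers (-0.48) were below it. Schwann cell markers were 5 above and 5 below 0, and satellite glia markers 3 and 3. In these lists edgeR called none, and DESeq2 called 1 sensory neuron and 1 satellite glia marker. An unadjusted p under 0.05 was found for 5 sensory neuron, 1 satellite glia and 1 lymphocyte marker. The part of any of these cells in the difference was not tested.

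On the injured side no gene was called (0 of 87 by edgeR, DESeq2 and limma-voom). Of all genes edgeR called 0.007%, 0.0035% in each direction, and DESeq2 0.0035% higher and 0.007% lower, and in 0.364% and 0.235% the groups separated with cKO higher and lower, as in none of the 87. Of the 87, none had an unadjusted p under 0.05, against 2.36% of all genes, and 80 were below 0, with a median log2 fold change of -0.03, while 50.1% of all genes were above 0. All 10 muscle, 10 Schwann cell, 7 endothelial and 6 satellite glia markers and 11 of 13 macrophage markers were also below 0. All 8 neutrophil markers were above it. Of 10 lymphocyte markers 9 were below 0 (median -0.60), and of 20 sensory neuron markers 13 were (median -0.02). Fibroblast markers were 3 above and 3 below 0, and erythroid markers 2 above and 3 below. None of these markers was called by edgeR or DESeq2. An unadjusted p under 0.05 was found for 1 satellite glia and 3 sensory neuron markers. The part of these cells was not tested. Rps14 had 114 ± 5.37 and 114 ± 2.60 CPM in control and cKO mice, Rps27 50.3 ± 2.17 and 49.997 ± 2.85, and Rplp0 189 ± 4.66 and 182 ± 5.74 CPM. Outside the scarce Rpl3l, whose log2 difference of -2.45 had an SE of 1.26, the highest difference was that of Rps4l (0.11, SE 0.0667), and Rps29 (-0.09, SE 0.0503) was among the 3 genes with the smallest p.

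The interaction of genotype and injury, which asks whether the response to transection differed between the genotypes, called no gene by edgeR or DESeq2 (0 of 87, against 0% of all genes by edgeR, and 0.035% higher and 0.0035% lower by DESeq2). The smallest adjusted p was 0.485 with edgeR, while 62 of the 87 had an unadjusted p under 0.05, against 9.80% of all genes, and 86 of the 87 interaction terms were below 0, with a median of -0.17 against 0.01 for all genes. In several marker lists every marker was below 0 too. Median terms were -3.58 for the 10 muscle, -0.78 for the 6 fibroblast, -0.70 for the 8 neutrophil and -0.44 for the 5 erythroid markers. They were -0.34 for the 13 macrophage and -0.33 for the 7 endothelial markers. In these lists 3 fibroblast markers and none of the others had an unadjusted p under 0.05 with edgeR. Other lists were mixed: of 20 sensory neuron markers 11 were above and 9 below 0 (median 0.01), with 6 at an unadjusted p under 0.05. Lymphocyte markers were 5 above and 5 below 0. Of 6 satellite glia and 10 Schwann cell markers, 5 and 8 were below 0 (medians -0.09 and -0.08). Neither edgeR nor DESeq2 called any of these markers, and the part of these cells was not tested. Rps27l (-0.25), Rps21 (-0.27) and Rps29 (-0.24) had the smallest p. This term uses the same contralateral libraries as the other comparisons and is no separate observation. Rps4l, at 0.05 (SE 0.0945), was the only one of the 87 genes above 0.

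Rpsa and Fau, outside the rule, had log2 fold changes for injury of 0.09 and 0.10 in control mice and of -0.09 and -0.06 in cKO mice, and edgeR called neither in any comparison. Rpsa had 184 ± 5.00 and 196 ± 5.59 CPM on the contralateral and ipsilateral sides of control mice and 202 ± 18.2 and 189 ± 4.08 CPM in cKO mice. On the uninjured side their log2 fold changes of cKO over control were 0.13 and 0.13, both with an unadjusted p under 0.05 (edgeR adjusted p 0.138 for Rpsa and 0.178 for Fau). DESeq2 called Rpsa there (adjusted p 0.04997) and neither gene in the other comparisons. The elongation factor gene Eef1a1, whose mRNA is also of the TOP kind, had 977 ± 42.6, 1043 ± 30.4, 1085 ± 92.6 and 997 ± 39.4 CPM in the control contralateral, control ipsilateral, cKO contralateral and cKO ipsilateral groups, and its highest value, 1213 CPM, was in the contralateral library of H64. Eef2, of the same kind, had means of 1014 to 1045 CPM in the 4 groups.

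Lists of genes that build or drive ribosomes were counted in the same edgeR fits, against the shares of all genes given above. Of 57 ribosome biogenesis factors, 30 rose and 3 fell in control mice and 32 rose and 1 fell in cKO mice, with median log2 fold changes of 0.13 and 0.14. Examples, named after their values were seen, are Sbds and Eif6, which act in the last steps of the large subunit (0.42 and 0.36 in control, 0.43 and 0.40 in cKO mice), and the box C/D protein gene Nop58 (0.39 and 0.43). Of 78 mitochondrial ribosomal protein genes, which serve the ribosome inside mitochondria, 2 rose and 33 fell in control and 3 rose and 41 fell in cKO mice (medians -0.09 and -0.11). Of 33 initiation factors, 13 rose and 1 fell in control and 13 rose and 4 fell in cKO mice, and Eif4e, which binds the mRNA cap, rose by 0.72 and 0.68. Among 15 regulators of mTORC1 and TOP mRNAs, 3 rose and 2 fell in control and 6 rose and 1 fell in cKO mice: Eif4ebp1, the inhibitor of Eif4e, rose by 0.93 and 0.72, and Pdcd4, an inhibitor of initiation, fell (-0.31 and -0.37). Of 7 elongation factors 2 and 1 rose, and of 10 tested genes of RNA polymerase I 2 rose and 2 fell in control and 3 rose and 1 fell in cKO mice. Between the genotypes and in the interaction edgeR called none of these genes. On the uninjured side, against 17.5% of all genes, an unadjusted p under 0.05 was found for 10 of 78 mitochondrial ribosomal protein genes, 7 of 57 biogenesis factors, 8 of 33 initiation factors, 4 of 15 regulators of mTORC1 and TOP mRNAs, 2 of 7 elongation factors and 0 of 10 genes of RNA polymerase I. DESeq2 called 2 of the mitochondrial ribosomal protein genes, 1 elongation factor and none of the other lists there.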

How the data were processed

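The members, gene lists and tests were chosen with earlier results of these data known. The authors deposited whole-number exonic counts per gene, without normalization, and an FPKM table; in all 21541 genes with at least 1000 counts, the deposited FPKM equalled the CPM divided by 1 length per gene (within 0.01%), so FPKM was used only as an alternative. Per the submitters' processing notes, HISAT2, Picard and the builds mm10 and mm39 were used; their roles, the annotation and the strand setting are not given in the sources used here. Symbols came from GENCODE release M21 (GRCm38) by Ensembl identifier (51487 of 78258 matched, 98.1% of counts).

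In R 4.3.3, edgeR 4.0.16 fitted all 20 libraries with 1 mean per group (TMM, filterByExpr with minimum count 10 and total 15, robust quasi-likelihood F-test), and p-values were adjusted by Benjamini-Hochberg over 28564 genes; calls are adjusted p under 0.05. Levels are TMM-scaled CPM, and 95% intervals are 1.96 SE. The fits were tested on simulated data. Replicates differed by more than counting error (chi-square per degree of freedom 5.30 to 58.6 over 40 pairs), so p-values rest on the spread between mice. Reads carry no molecular identifiers, and limits from counts cover counting error only.

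The 2 libraries of a mouse share an animal, per the labels, so mouse numbers pair them. Over all tested genes, deviations from group means correlated with a median r of 0.186 (-0.0546 to 0.361, with 7 of 10 mice above 0.1). Over the ribosomal protein genes alone, r differed widely between mice, from -0.675 in H99 to 0.957 in H100. Alternatives were RLE size factors, total counts, TMM without the ribosomal protein genes, no filter, mean CPM of at least 1, the replicate block, the range of mouse numbers as covariate, only the libraries compared, limma-voom with mouse as random effect, limma 3.58.1 on log2(FPKM + 1) and log2(FPKM + 0.1), DESeq2 1.42.0, and leaving out each mouse. Named genes were the paralog pairs, Rps6, Rplp0, Rps27a, the up to 8 called members with the highest and lowest log2 fold change per comparison (where the higher group averaged 5 CPM or more), the 3 smallest p where none was called, and the 8 highest and lowest by CPM; others were named after their values were seen. One gene outside the rule is not reported here.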

Additional observations from a re-analysis of the deposited data

Results flagged for a closer look

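Of 160 groups of 5 libraries examined, 7 held a library whose gap to the next, divided by the range of the group, exceeded Dixon's critical value of 0.71; chance alone gives about 8, since 1 in 20 groups passes. Of the 7, 3 were from the control ipsilateral library of H96: Rps4x (183 CPM against 170 to 171, ratio 0.877), Rpl7 (187 against 174 to 177, ratio 0.764) and Rps9 (205 against 189 to 193, ratio 0.716). In the same group Rps27a was high in H62 (65.7 CPM against 48.4 to 52.3, ratio 0.772). Rps4x was also high in the cKO ipsilateral library of H100 (180.1 CPM against 165 to 168, ratio 0.825). In cKO contralateral libraries Rpl3l was high in H100 (5.90 CPM against 0.0909 to 0.311, ratio 0.962), and Rpl32l in H61 (0.909 CPM against 0.633 to 0.695, ratio 0.774).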

How the results depend on the processing

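No result changed direction while called. In control mice the 6 calls for injury became 3 with total counts in place of TMM, 3 and 3 with limma on log2(FPKM + 1) and log2(FPKM + 0.1), and 37 with only the libraries compared; leaving out each mouse gave 3 to 14. In cKO mice the 20 calls became 7 without a filter, 8 with the replicate block (mouse) and 4 with only the libraries compared, and 4 to 41 without a mouse. The share of all genes called is not given for the cKO fits without a filter or with only the libraries compared. Those counts therefore cannot be set against all genes. Between genotypes on the uninjured side the 0 calls became 23 with DESeq2, and 0 to 69 without a mouse. The cause of these moves was not tested. The replicate block gave 6 calls in control mice (5 of them among the 6 given in the report) and 0 for the interaction. Across all alternatives the median log2 fold change of the genes was 0.05 to 0.10 for injury in control mice, -0.13 to -0.04 in cKO mice, and 0.09 to 0.17 between genotypes on the uninjured side, while that of all genes was within -0.05 to 0.01 in these comparisons. Of the values of single genes, 609 kept their side of the threshold, 157 lost a call and 6 gained one. Depth limited Rpl10l and Rpl39l, and among the tested genes Rps12l1, with 8 to 21 counts per library, and Rpl3l, with as few as 6.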
